A study of Homo sapiens with 4 samples.

Results

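RAPGEF1 and 7 other genes of the RAP1 switch were followed in MV4-11 cells, a human acute myeloid leukemia cell line, with and without knockdown of CEBPG, a transcription factor of the C/EBP family. The 8 genes, RAPGEF1, RAPGEF2, RAPGEF6, RAP1A, RAP1B, CRK, CRKL and SIPA1, are 8 of the 16490 genes with values and are listed by 19 of 28581 RefSeq transcripts. They were chosen by name with earlier results of these libraries known, RAPGEF1 for its gene sum and its transcripts in the same contrast, so their levels and differences are given as a description, with no p-value for any of them. How many passed a threshold is counted once, beside the share of all genes. The data are 4 RNA-seq libraries. In 2 of them, sh-NC, the cells carried a control hairpin, and in the other 2, sh-CEBPG#3, a hairpin against CEBPG. The study built its hairpins against CEBPG in the lentiviral vector pLKO.1-puro and selected infected cells with puromycin. Its methods do not name the target or vector of the control hairpin.

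The unit is FPKM, the fragments per kilobase of transcript scaled to the mapped fragments, deposited per transcript, and a gene sum adds the FPKM of all its transcripts in the table. A log2 fold change is the difference of mean log2(FPKM + 1), sh-CEBPG#3 minus sh-NC, given with its standard error (SE) from limma, and it understates the change of genes with low values. With 1 CEBPG hairpin sequenced, loss of CEBPG and another effect of that hairpin cannot be told apart. Whether a group's libraries are separate infections or cultures is not stated, so SDs cover only the spread between these libraries. SEs and p-values of limma rest on that spread, moderated by the spread of the other genes or transcripts fitted. An exact permutation test of 2 against 2 libraries cannot go below p = 0.333.

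CEBPG itself was 30.4 and 33.6 FPKM in sh-NC replicates 1 and 2 and 19.2 and 17.1 FPKM in sh-CEBPG#3 replicates 1 and 2. The knockdown libraries thus kept 56.8% of the control mean (log2 fold change -0.78, SE 0.09, adjusted p = 8.88e-05, limma with Benjamini-Hochberg adjustment over 12142 genes). The 6 myeloid and leukemia markers listed (CD33, SPI1, MPO, PTPRC, CSF1R and FLT3) all had values, and their summed FPKM was 291 to 321 in sh-NC and 373 to 397 in sh-CEBPG#3. Of 8 markers of T, B, erythroid, platelet and epithelial cells, 7 had no row with values, and KRT18 had 8.57 to 10.6 FPKM over the 4 libraries. The 6 myeloid and leukemia markers did not all move together. CD33, SPI1, MPO and CSF1R were higher in sh-CEBPG#3 (log2 fold change 0.33 to 0.80), each with an adjusted p under 0.05 in limma. PTPRC was higher without passing (0.21, adjusted p = 0.123 in limma), and FLT3 was lower without passing (-0.14, adjusted p = 0.161 in limma). The marker sum moved with the hairpin groups as several genes below did, and its part in their differences was not tested. In a bulk sample, fewer cells of a type and less RNA per cell cannot be told apart.

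RAP1 is a small GTPase of the RAS family that is on when bound to GTP and off when bound to GDP. Guanine nucleotide exchange factors such as the product of RAPGEF1 load it with GTP, and GTPase-activating proteins such as SIPA1 (SPA-1) turn it off by speeding up GTP hydrolysis. The adaptors CRK and CRKL bind tyrosine-phosphorylated scaffolds through their SH2 domain and the RAPGEF1 protein through their first SH3 domain, which brings the exchange factor to the membrane. In blood cells active RAP1 is best known for switching integrins to their adhesive state from inside the cell.

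RAPGEF1 lies on the minus strand of chromosome 9 (hg38, chr9:131576775-131740076). RefSeq on GRCh38.p14 gives it 3 transcription starts, and the 250 bases before each are shown because transcripts that begin at different starts would use different promoters. Capitals mark CG dinucleotides, and each sequence reads 5′ to 3′ on the minus strand.
RAPGEF1 upstream start (chr9:131740077-131740326): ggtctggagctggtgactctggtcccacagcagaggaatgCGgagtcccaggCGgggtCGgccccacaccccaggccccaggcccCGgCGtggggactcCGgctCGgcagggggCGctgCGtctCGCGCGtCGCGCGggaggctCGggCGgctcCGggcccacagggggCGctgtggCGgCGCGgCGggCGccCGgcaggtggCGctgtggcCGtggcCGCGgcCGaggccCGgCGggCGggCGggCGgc
RAPGEF1 middle start (chr9:131737448-131737697): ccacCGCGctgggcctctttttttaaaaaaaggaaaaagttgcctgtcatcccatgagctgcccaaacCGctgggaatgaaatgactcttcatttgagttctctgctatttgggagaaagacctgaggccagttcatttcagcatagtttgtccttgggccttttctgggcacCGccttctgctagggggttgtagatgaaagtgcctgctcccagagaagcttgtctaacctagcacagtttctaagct
RAPGEF1 downstream start (chr9:131709843-131710092): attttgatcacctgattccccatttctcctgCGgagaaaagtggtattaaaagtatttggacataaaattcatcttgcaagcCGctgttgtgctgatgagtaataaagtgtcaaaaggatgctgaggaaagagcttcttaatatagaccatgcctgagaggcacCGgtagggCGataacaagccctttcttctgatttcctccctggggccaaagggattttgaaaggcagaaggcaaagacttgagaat
The window of the upstream start had a GC content of 81.6% and 35 CG dinucleotides, a number reached by 5.8% of the 35116 RefSeq windows of this length, whose median was 11. The middle and downstream windows had a GC content of 48.4% and 43.2% and 4 CG dinucleotides each, which 70.7% of all windows reached. The upstream start is therefore the one start of RAPGEF1 in CG-dense sequence. No table used here pairs the RefSeq transcripts below with these starts.

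The C/EBP motif TTGCNNAA and the C/EBP-ATF motif TGATGNAA were searched on both strands of the 13 windows of the 8 genes, and neither had a match. They occur in 9.05% and 3.14% of all windows. The motif CCAAT, counted apart from these 2, was present in 5 of the 13 windows, beside 32% of all windows. The 5 were 2 of RAPGEF2 and those of RAPGEF6, CRK and CRKL. A match or its lack describes these letters in these windows only.

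The coding models of RAPGEF1 in GENCODE v44 differ in their first exons and in 3 exons inside the gene. There are 4 of them with an agreed coding sequence, of 1077 to 1263 codons with the stop codon left out. The model of 1077 codons has its own first exon of 134 nt (chr9:131737405-131737538) and that of 1095 codons another of 223 nt (chr9:131709620-131709842). The models of 1094 and 1263 codons begin in an exon of 305 and 307 nt at the upstream start, and the longest adds 3 exons of 93, 258 and 156 nt. All 4 share 5946 nt, which is 88% of the longest and 97.7% of the shortest. Most fragments of this gene would therefore fall on shared sequence, and how the deposited values divided those among transcripts is not given in the sources used here.

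The exchange factor RAPGEF1 showed the largest difference between its transcripts among the 8 genes. NM_001304275 had 15.8 and 18.0 FPKM with sh-NC against 1.79 and 1.53 FPKM with sh-CEBPG#3. It made up 98.1% and 100% of the RAPGEF1 sum in sh-NC, and 7.2% and 6.41% in sh-CEBPG#3. The groups are far apart, and the knockdown mean of 1.66 ± 0.185 FPKM (SD, n = 2) was 9.81% of the control mean of 16.9 ± 1.55 FPKM (SD, n = 2), with a log2 fold change of -2.75 (SE 0.13).

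NM_198679 had the opposite pattern. It had 0.31 FPKM in sh-NC replicate 1, was listed at 0 in replicate 2, and had 23.1 and 22.3 FPKM with sh-CEBPG#3. Its share of the gene was 1.92% and 0% in sh-NC against 92.8% and 93.4% in sh-CEBPG#3, a difference of the means of 92.1 percentage points. Because 1 control library is listed at 0, no fold is given. NM_005312 was listed at 0 in both sh-NC libraries and had 0.01 and 0.0568 FPKM in sh-CEBPG#3, at most 0.238% of the gene in any library. RefSeq has 7 curated transcripts of RAPGEF1, and 3 are in the table.

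**Figure D1:**
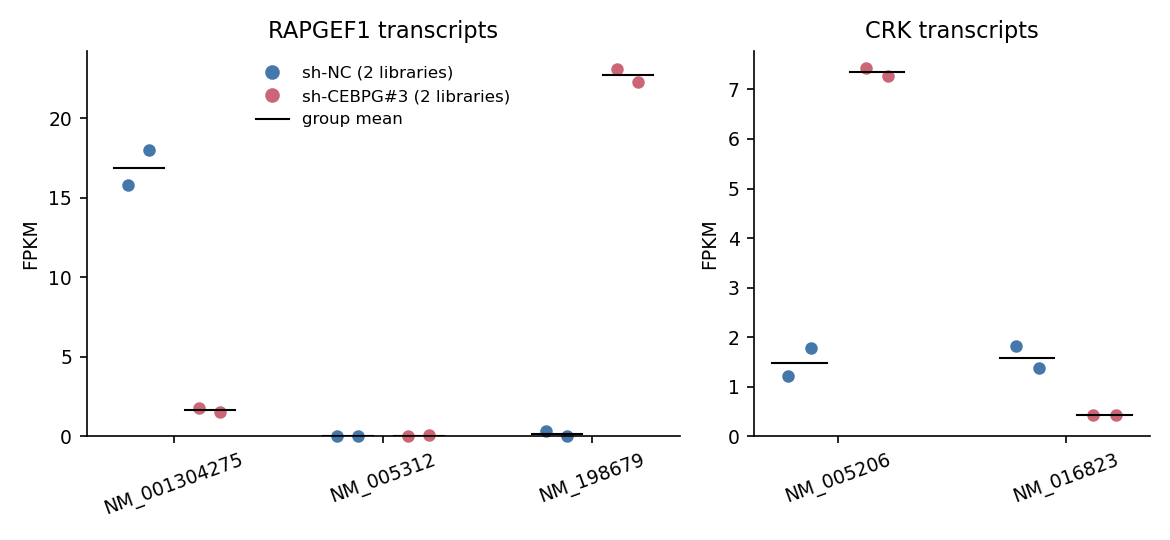
FPKM (vertical axis, linear from 0) of each RefSeq transcript of RAPGEF1 (left) and CRK (right), with 1 point per library, sh-NC in blue and sh-CEBPG#3 in red, and a line at each group mean. In RAPGEF1, NM_001304275 is at 15.8 to 18.0 FPKM in sh-NC and below 2 FPKM in sh-CEBPG#3, and NM_198679 has the reverse order.

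Summed over its transcripts, RAPGEF1 had 16.2 and 18.0 FPKM in sh-NC and 24.9 and 23.9 FPKM in sh-CEBPG#3. Both knockdown libraries were above both controls, and the mean of 24.4 ± 0.696 FPKM was 143% of 17.1 ± 1.34 FPKM (SD, n = 2 each). The log2 fold change was 0.49 (SE 0.08). The gene sum and its main control transcript thus point in opposite directions, and a value for RAPGEF1 depends on which of them is read.

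The other exchange factors were lower in level. RAPGEF2, which like RAPGEF6 is a PDZ-domain exchange factor for RAP GTPases, had 2.19 and 2.13 FPKM in sh-NC and 3.9 and 3.14 FPKM in sh-CEBPG#3. Its groups did not overlap (163% of the control mean, log2 fold change 0.51, SE 0.12), and the table lists 1 transcript of it. RAPGEF6 had 5.17 and 5.1 FPKM in sh-NC and 5.26 and 4.59 FPKM in sh-CEBPG#3. These groups overlapped (log2 fold change -0.05, SE 0.10), and without sh-CEBPG#3 replicate 2 the sign turned to 0.03. The 3 exchange factors together had 23.5 and 25.3 FPKM in sh-NC and 34.1 and 31.6 FPKM in sh-CEBPG#3. RAPGEF1 supplied 68.7% and 71.4% of that in sh-NC and 73.1% and 75.6% in sh-CEBPG#3.

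Among the adaptors, CRK differed both in level and in transcript makeup. CRK lies on the minus strand of chromosome 17 (hg38, chr17:1420693-1456232), and its long and short coding models in GENCODE v44 share 3671 nt, 95.4% and 99.9% of their lengths. They differ by 170 bases at the end of exon 2 (chr17:1436620-1436789), which are kept in the long model of 304 codons (Crk-II) and spliced out of the short one of 204 codons (Crk-I). Crk-I lacks the second SH3 domain and the regulatory tyrosine of Crk-II. The junction is shown with its 20 shared bases in lower case and the 170 bases of the long model alone in capitals, on the minus strand, since these bases hold most of the sequence that separates the models.
CRK end of exon 2 (chr17:1436620-1436809): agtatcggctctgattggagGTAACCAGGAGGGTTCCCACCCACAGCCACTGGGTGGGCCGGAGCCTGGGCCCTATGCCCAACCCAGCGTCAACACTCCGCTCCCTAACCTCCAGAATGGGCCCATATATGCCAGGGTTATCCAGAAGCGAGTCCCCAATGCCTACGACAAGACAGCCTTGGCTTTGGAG

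The pairing of the CRK transcripts with these forms is general knowledge of RefSeq names and is in no table used here. NM_005206, known as variant I (Crk-I), had 1.21 and 1.78 FPKM in sh-NC and 7.43 and 7.28 FPKM in sh-CEBPG#3. The knockdown mean of 7.36 ± 0.103 FPKM was 4.92-fold the control mean of 1.49 ± 0.404 FPKM (SD, n = 2 each), with a log2 fold change of 1.75 (SE 0.17). NM_016823, known as variant II (Crk-II), had 1.82 and 1.37 FPKM in sh-NC and 0.426 and 0.435 FPKM in sh-CEBPG#3, 27.0% of the control mean (log2 fold change -0.85, SE 0.19). For both variants the groups lay apart, in opposite directions. The share of variant I was 39.9% and 56.6% with sh-NC and 94.6% and 94.4% with sh-CEBPG#3. The control libraries differed by 16.7 percentage points and the knockdown libraries by 0.214.

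As a gene sum CRK had 3.03 and 3.15 FPKM in sh-NC and 7.86 and 7.72 FPKM in sh-CEBPG#3. This is 252% of the control level (3.09 ± 0.0806 against 7.79 ± 0.0967 FPKM, SD, n = 2 each, log2 fold change 1.10, SE 0.09), the largest difference of the 8 gene sums. CRKL, the paralog encoded by a separate gene, had 17.6 and 19.0 FPKM in sh-NC and 17.7 and 16.7 FPKM in sh-CEBPG#3, and its groups overlapped (log2 fold change -0.09, SE 0.08). CRK made up 14.7% and 14.2% of the summed FPKM of CRK and CRKL in sh-NC and 30.7% and 31.6% in sh-CEBPG#3. CRKL remained the more abundant adaptor in every library, and the sum of both was 20.7 and 22.2 FPKM in sh-NC and 25.6 and 24.4 FPKM in sh-CEBPG#3.

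**Figure D2:**
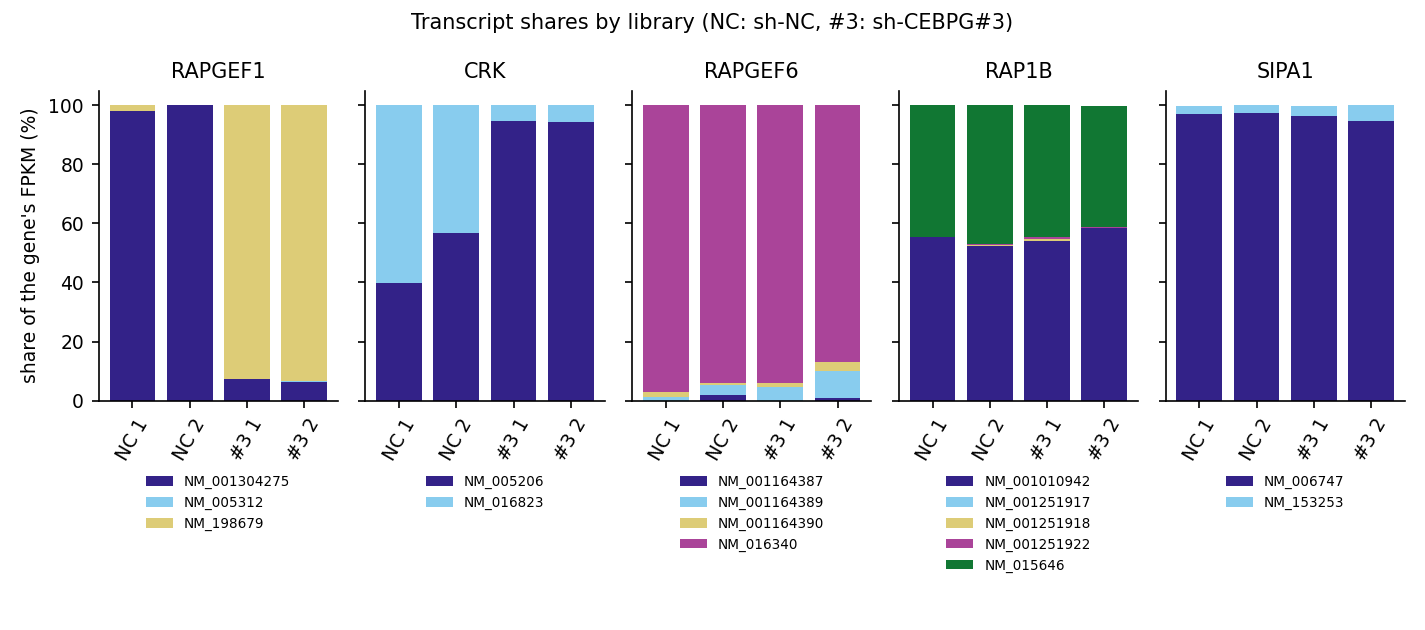
Share of each gene's FPKM (vertical axis, percent) taken by each RefSeq transcript, as 1 stacked bar per library, for the 5 genes with at least 2 transcripts in the table. RAPGEF1 bars change from NM_001304275 in sh-NC to NM_198679 in sh-CEBPG#3, CRK bars go from a mixture to 94.4% or more NM_005206, and RAP1B bars hold 2 main transcripts in all 4 libraries.

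For both GTPase genes the gene sums overlapped between the groups. RAP1B, the main RAP1 gene here and the most abundant of the 8, had 80.1 and 88.3 FPKM in sh-NC and 96.5 and 87.2 FPKM in sh-CEBPG#3, with overlapping groups (log2 fold change 0.12, SE 0.08). Its 2 main transcripts, NM_001010942 and NM_015646, held 52.3% to 58.4% and 41.2% to 47.1% of the gene, and the other 3 had at most 0.649 FPKM. NM_001010942 had 44.4 and 46.2 FPKM in sh-NC and 52.1 and 51.0 FPKM in sh-CEBPG#3 (log2 fold change 0.18, SE 0.06). NM_015646 had 35.6 and 41.6 against 43.2 and 35.9 FPKM.

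RAP1A, which encodes the near-identical GTPase, had 7.64 and 8.32 FPKM in sh-NC and 9.07 and 3.71 FPKM in sh-CEBPG#3. The knockdown libraries stood on either side of the controls, so 1 library decides the sign of its log2 fold change (-0.38, SE 0.26), which was -0.93 without sh-CEBPG#3 replicate 1 and 0.17 without replicate 2. RAP1A made up 8.59% to 8.7% of the summed RAP1A and RAP1B FPKM in 3 libraries and 4.08% in sh-CEBPG#3 replicate 2. The table holds 1 of the 6 curated RefSeq transcripts of RAP1A. Both genes have processed pseudogenes in RefSeq, with which reads can be shared, so their levels are uncertain to that extent.

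SIPA1, the GTPase-activating protein of the group, had 8.07 and 8.43 FPKM in sh-NC and 7.28 and 8.13 FPKM in sh-CEBPG#3, and its groups overlapped (log2 fold change -0.09, SE 0.09). NM_006747 held 94.8% to 97.4% of it. That transcript had 7.84 and 8.21 FPKM in sh-NC and 7.01 and 7.71 FPKM in sh-CEBPG#3 (log2 fold change -0.11, SE 0.10).

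**Figure D3:**
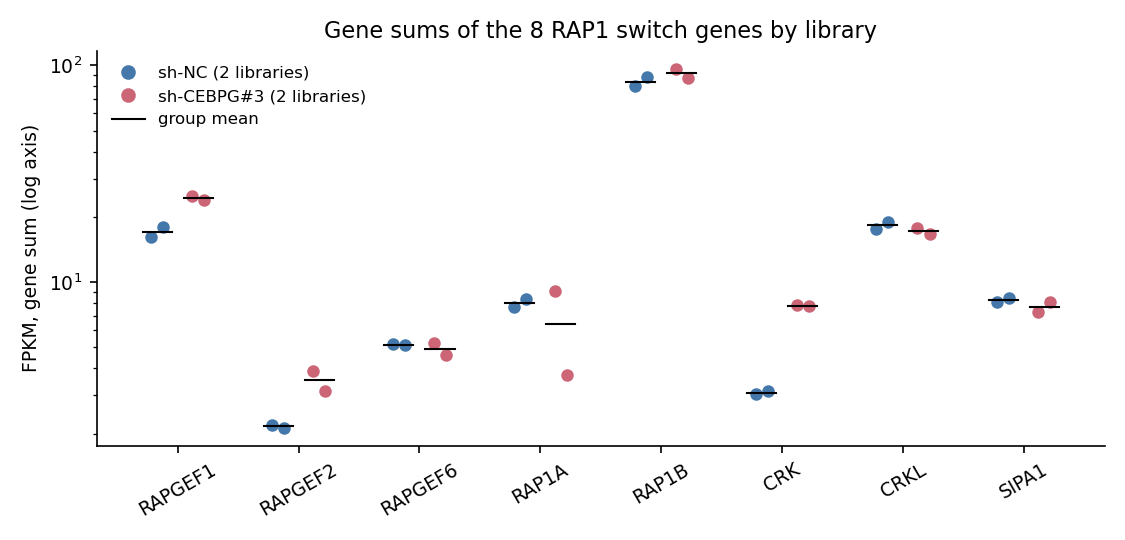
Gene sum of FPKM (vertical axis, log scale) for the 8 genes, with 1 point per library, sh-NC in blue and sh-CEBPG#3 in red, and a line at each group mean. RAPGEF1, RAPGEF2 and CRK have both sh-CEBPG#3 points above both sh-NC points, and RAP1A has 1 sh-CEBPG#3 point at 3.71 FPKM below the rest.

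In sh-NC the order of the gene sums, in FPKM, ran from RAP1B (84.2) through CRKL (18.3), RAPGEF1 (17.1), SIPA1 (8.25), RAP1A (7.98), RAPGEF6 (5.13) and CRK (3.09) to RAPGEF2 (2.16). The neighbours CRKL and RAPGEF1, and SIPA1 and RAP1A, overlapped between libraries. In sh-CEBPG#3 RAPGEF1 (24.4) stood above CRKL (17.2) with no overlap, and CRK (7.79), SIPA1 (7.7), RAP1A (6.39) and RAPGEF6 (4.93) formed a chain in which each neighbouring pair overlapped. RAPGEF2 (3.52) stood below them with no overlap with RAPGEF6. The most abundant GTPase exceeded the exchange factor RAPGEF1 in every library, and the median gene tested had 7.57 FPKM in sh-NC.

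All 8 gene sums passed the filter of a mean of 0.5 FPKM over the 4 libraries. Of the 8, 3 had an adjusted p under 0.05, all higher, where 42.2% of all 12142 genes did (5128 genes, limma with Benjamini-Hochberg adjustment). The study's rule (a log2 fold change beyond 1 in size with an unadjusted p under 0.05) was passed by 1 of the 8, beside 3.41% of all genes. The groups did not overlap in 3 of the 8 genes, RAPGEF1, RAPGEF2 and CRK, beside 71.7% of all genes. Of the 19 transcripts 11 passed the same filter and 8 did not. NM_198679 met it through sh-CEBPG#3 alone, with a mean of 22.7 FPKM there and 0.155 FPKM in sh-NC. Of the 11, 3 had an adjusted p under 0.05, 2 higher and 1 lower, beside 8.24% of all 18624 transcripts tested. The same 3 passed the study's rule, beside 4.97%. The calls at an adjusted p depend on having all 4 libraries. With any 1 left out, 0 to 1 of all transcripts passed in limma, so at most 1 of these 3 could. Since the genes were chosen with this contrast in view, nothing is read from these counts. The median log2 fold change was 0.04 over the 8 genes and -0.04 over all genes.

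How far the makeup of a gene moved was measured as its swing, the percentage points of its FPKM that stood on other transcripts in the mean of sh-CEBPG#3 than in the mean of sh-NC. RAPGEF1 had a swing of 92.2 points, while its libraries differed by 1.92 points within sh-NC and 0.798 within sh-CEBPG#3. It ranked 19 of the 5806 genes with at least 2 transcripts. Their median swing was 6.47, and the median was 7.03 between the libraries of sh-NC and 7.09 between those of sh-CEBPG#3. A swing compares means of 2 libraries and a difference within a group compares single libraries, so these are not like for like. The swing of RAPGEF6 was 5.64, that of RAP1B 2.82 and that of SIPA1 1.71, each smaller than the larger of their differences within a group except SIPA1, where this was 1.54.

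A switch was counted where the swing was at least 50 points and each group's libraries differed by less than 25. RAPGEF1 met this, as did 39 genes in all (0.672%), and it was chosen for this pattern. CRK lay just under it with a swing of 46.2, and 37.9 without sh-NC replicate 1 or 54.6 without sh-NC replicate 2. Large swings also arose between libraries of the same group: 273 genes reached 50 points within sh-NC and 252 within sh-CEBPG#3, and 132 did between the group means. Averaging 2 libraries lowers part of the spread between the means, so these counts do not measure the same thing. Of the 4032 genes averaging 5 FPKM or more, 9 had a switch, 3 of them of at least 90 points, and 70 and 45 genes reached 50 points within sh-NC and within sh-CEBPG#3.

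**Figure D4:**
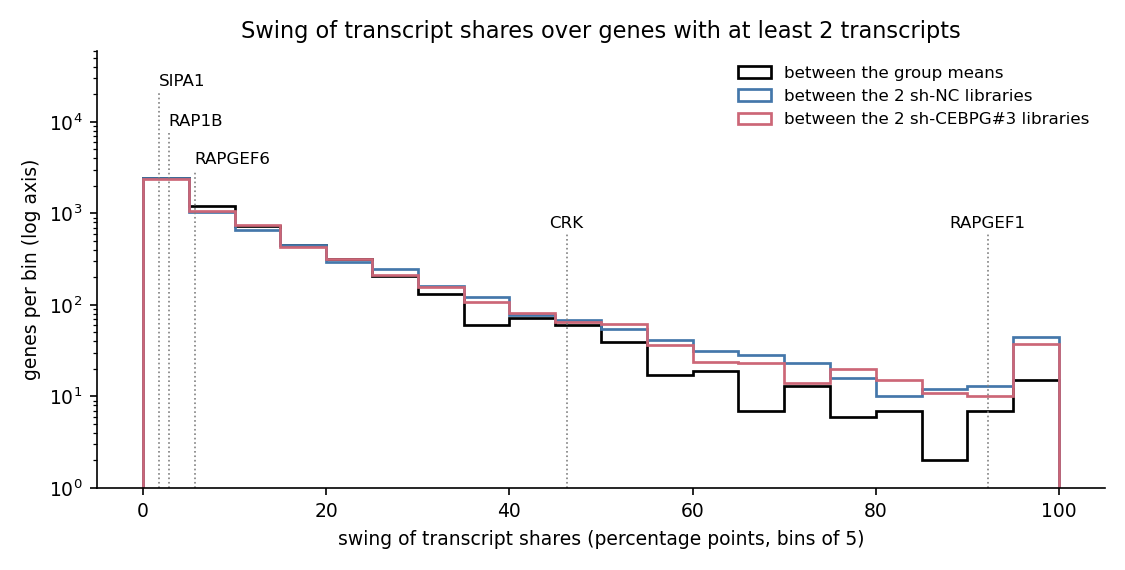
Number of genes (vertical axis, log scale) by swing of transcript shares (horizontal axis, percentage points, bins of 5) for 5806 genes with at least 2 transcripts, between the group means (black), between the sh-NC libraries (blue) and between the sh-CEBPG#3 libraries (red). Dotted lines mark the 5 RAP1 switch genes compared, with RAPGEF1 at 92.2 and CRK at 46.2 points, and beyond 50 points the curves within a group lie above the curve between groups in total. The curves within a group compare single libraries and the black curve compares means of 2, so their heights are not like for like.

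The genes with a swing nearest to that of RAPGEF1, by the difference in swing over these 4 libraries among genes with a switch and at least 5 FPKM, were CYTH1 (99.6), P4HA1 (84.8), CDC42EP3 (75.7), MTX1 (62.2) and APBA2, whose whole FPKM changed transcript. CYTH1 encodes an exchange factor for ARF GTPases that binds integrin tails. Its NM_017456 had 10.5 and 9.89 FPKM in sh-NC and was listed at 0 in both sh-CEBPG#3 libraries, where NM_001292018 had 7.9 and 8.26 FPKM. APBA2, an adaptor that binds the amyloid precursor protein, had NM_005503 at 4.67 and 5.69 FPKM in sh-NC and NM_001130414 at 5.41 and 5.06 FPKM in sh-CEBPG#3, each listed at 0 in the other group. P4HA1 and CDC42EP3 differed by 20.3 and 24.1 points within sh-NC as well, and MTX1 has a pseudogene with which reads can be shared.

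The wider RAP1 pathway was described with 52 further genes in 5 lists. Of these 5 had no row, 11 were under the filter and 36 were tested. At an adjusted p under 0.05 were 15 of the 36 (9 higher, 6 lower), which is 41.7% beside 42.2% of all genes, and their median log2 fold change was -0.01. None passed the study's rule with 1 added to FPKM before the log, where 414 of all genes did in limma. With 0.1 added instead, RASA4 and ARAP3 passed it (log2 fold change 1.07 each), beside 827 of all genes. With 0.01 added they passed it as well (1.14 and 1.18), beside 882. All genes of the lists were refitted in this way, but only some were read singly. Other genes with low values may therefore have passed as well.

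Among the other exchange factors, RASGRP2 (CalDAG-GEFI), which activates RAP1 on calcium and diacylglycerol signals in blood cells, had 30.1 and 31.3 FPKM in sh-NC and 20.6 and 18.8 FPKM in sh-CEBPG#3. It fell (log2 fold change -0.62, SE 0.08, adjusted p = 0.000229 in limma), and it was the 1 of 2 tested in that list to pass. RASGRP3, the other and named after its values were seen, was higher. It had 0.395 and 0.285 FPKM in sh-NC and 0.685 and 0.719 FPKM in sh-CEBPG#3, near the filter, and did not pass (adjusted p = 0.074 in limma). At its control level RASGRP2 had more FPKM than RAPGEF1, and in sh-CEBPG#3 the order was reversed in both libraries.

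Of the inactivators 3 of 6 passed, all higher, beside the 42.2% of all genes. RAP1GAP2, another of the 6 and named after its values were seen, had 3.06 and 2.61 FPKM in sh-NC and 2.16 and 2.19 FPKM in sh-CEBPG#3 and did not pass (adjusted p = 0.0797 in limma). RAP1GAP, a GTPase-activating protein for RAP1, had 3.16 and 3.19 FPKM in sh-NC and 5.51 and 5.06 FPKM in sh-CEBPG#3 (log2 fold change 0.59, SE 0.10, adjusted p = 0.00102 in limma). RASA4, which acts on RAS and RAP, went from 0.98 and 0.884 to 2.07 and 2.05 FPKM (0.66, SE 0.12, adjusted p = 0.00162 in limma). Its near-identical paralog RASA4B is also in the table and could share its reads, so that value is uncertain.

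Of the 4 genes for RAP2 GTPases and the RAP chaperone, 1 rose and 1 fell. RAP1GDS1 (SmgGDS), a chaperone of small GTPases, had 9.09 and 10.5 FPKM in sh-NC and 12.5 and 11.8 FPKM in sh-CEBPG#3 (0.29, SE 0.09, adjusted p = 0.0327 in limma). RAP2A had 11.3 and 11.2 FPKM in sh-NC and 9.22 and 9.23 FPKM in sh-CEBPG#3 (-0.26, SE 0.08, adjusted p = 0.0262 in limma). The call of RAP1GDS1 was lost without sh-NC replicate 1 (0.19, adjusted p = 0.187 in limma) and without sh-CEBPG#3 replicate 1 (0.24, adjusted p = 0.139 in limma). That of RAP2A was lost without any 1 of the 4 libraries, while its value stayed between -0.27 and -0.26, with adjusted p from 0.062 to 0.088 in limma.

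Of the effectors 5 of 13 passed (38.5%, beside 42.2% of all genes), 3 higher and 2 lower. The 2 lower, named after their values were seen, were FYB1 (log2 fold change -0.48, SE 0.12, adjusted p = 0.00771 in limma) and AFDN (-0.34, SE 0.11, adjusted p = 0.032 in limma). FERMT3 (kindlin-3), which binds integrin tails in blood cells, had 47.3 and 50.3 FPKM in sh-NC and 71.3 and 66.8 FPKM in sh-CEBPG#3 (0.49, SE 0.07, adjusted p = 0.000573 in limma). ARAP3, a GTPase-activating protein for ARF6 and RHOA that binds RAP1, rose from 0.559 and 0.555 to 1.27 and 1.29 FPKM (0.55, SE 0.13, adjusted p = 0.00688 in limma).

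Of the partners of CRK 4 of 11 passed (36.4%, beside 42.2% of all genes), 2 in each direction. ABL1, a kinase gene named after its values were seen, fell from 14.5 and 16.1 to 12.1 and 11.5 FPKM (-0.35, SE 0.09, adjusted p = 0.00943 in limma). The kinase gene ABL2 fell from 2.52 and 2.61 to 1.75 and 1.25 FPKM (-0.52, SE 0.13, adjusted p = 0.00895 in limma), and CBL, a ubiquitin ligase that binds CRK and CRKL, rose from a mean of 6.75 ± 0.129 to 9.67 ± 0.537 FPKM (SD, n = 2 each) and was higher in both knockdown libraries (0.46, SE 0.09, adjusted p = 0.0023 in limma). None of the 20 genes of these lists with at least 2 transcripts had a switch, and their swings ran from 0.56 to 58.9 points with a median of 7.55. ABL2 had the 58.9 points, with 39.8 between its sh-NC libraries.

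**Figure D5:**
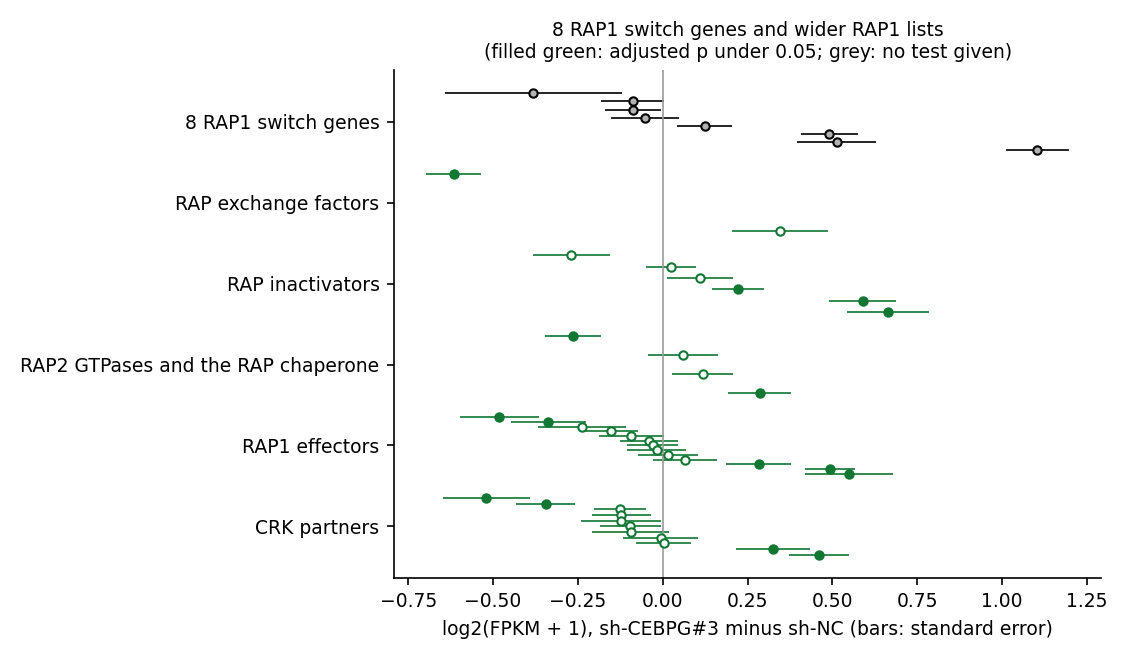
Difference of mean log2(FPKM + 1), sh-CEBPG#3 minus sh-NC (horizontal axis), with its standard error as a bar, for the 8 RAP1 switch genes (grey, given as a description) and the 36 tested genes of the 5 wider lists (green, filled where the adjusted p of limma is under 0.05). CRK lies farthest to the right at 1.10 and RASGRP2 farthest to the left at -0.62, and each of the larger lists has genes on both sides of 0.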

How the data were processed

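RNA-seq libraries of MV4-11 cells (2 sh-NC, 2 sh-CEBPG#3), made from total RNA with an Illumina TruSeq kit, were grouped by the submitters' labels. FPKM values per RefSeq transcript were deposited by the authors, and their processing notes name HISAT2 2.0.5 and hg38. The annotation and the program that computed FPKM are not given in the sources used here. Depth is unknown, since FPKM carries no counts and no steps of whole reads were seen among 1027 low transcripts, where the most common ratio between libraries was shared by 0.974%. No interval or floor is given.

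FPKM was summed by symbol, filtered at a mean of 0.5, and log2(FPKM + 1) was fitted with limma 3.58.1 (trend, R 4.3.3) with no block, with Benjamini-Hochberg adjustment over all genes, and likewise per transcript. The authors named a count test for their DEGs, which FPKM does not allow. Genes, lists and alternatives were chosen with earlier results of these data known. Named were the 8 genes with every transcript, CEBPG, per wider list the genes past the study's rule and the 2 largest changes at an adjusted p under 0.05, and the 5 genes with a switch nearest to RAPGEF1. Genes said to be named after their values were seen come on top of these. The limma script was tested on simulated data. Promoter windows come from RefSeq GRCh38.p14 (13 windows, 8 of 8 genes matched), and transcript models from GENCODE v44 on hg38 (Python 3.11.15).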

Additional observations from a re-analysis of the deposited data

How the results depend on the processing

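The share differences of NM_001304275 and NM_198679, and the gene sums of RAPGEF1, RAPGEF2 and CRK, kept their direction under every alternative run on them. The direction of RAPGEF1 depends on the transcript where 1 stands for the gene: the most abundant over the 4 libraries, NM_198679, was higher (fitted log2 difference 4.37, no fold since 1 control library is listed at 0), and the main control transcript, NM_001304275, was lower (-2.75). The count of genes past the study's rule was 414 (286 higher, 128 lower), 827 (490 higher, 337 lower) with a pseudocount of 0.1 and 882 (509 higher, 373 lower) with 0.01. The count of transcripts at an adjusted p under 0.05 was 1534, 790 with no filter, 2556 with quantile normalization, 2630 with equal totals, and 0 to 1 with each library left out, where limma gave 3804 to 4367 at an unadjusted p under 0.05. The count of genes with a switch was 39, 22 at a swing of 75 points, 9 at a mean of 5 FPKM, and 105 to 134 with each library left out, where the limit within a group lapses for the group left with 1 library. The share of NM_005312, 0.139 points higher, lay between 0.0403 and 0.238 when each library was left out. The lone library of such a fit is assumed to vary like the others.

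The replicate numbers are shared by the groups, but same-numbered libraries deviated with a correlation of 0.061, so they share only a number. With the number as a block, 4761 genes had an adjusted p under 0.05 (5128 without), 419 passed the study's rule, 13 wider RAP1 genes passed (15 without), and 112 transcripts did. The count of wider RAP1 genes was 10 to 11 with each library left out. The readings of single named genes under these alternatives were added after seeing the data. CEBPG, RASGRP2, RASA4, RAP1GAP, FERMT3 and CBL kept the call in all 11 alternatives. ARAP3 kept it in the 10 run on it, since it lay under the filter of 1 FPKM. ABL2 lost it with no filter, RAP1GDS1 in 3 and RAP2A in 5 of 11 alternatives, up to an adjusted p of 0.187 and 0.088 in limma. The cause was not tested.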
